A study of Mus musculus with 8 samples.

Results

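The response of wild-type mouse T cells to antibodies against CD3 and CD28 was read from 4 of the 8 arrays of the series. These were chosen by their titles: 2 arrays of splenic T cells of wild-type C57BL/6 (Lsp1+/+) mice kept in medium, and 2 arrays of the same kind of cells after 6 h with anti-CD3/CD28 antibodies. The other 4 arrays hold splenic T cells of Lsp1-/- mice, backcrossed for 10 generations to C57BL/6, in the same conditions (2 in medium and 2 stimulated for 6 h). Both genotypes were 8 to 12 weeks of age, the controls had been matched for sex, and RNA integrity exceeded 9.5 throughout. Cy3-labelled RNA of 1 sample was read on each one-colour Agilent array. The antibody doses and the way T cells were purified are not given in the sources used here. Whether both arrays of a group stand for different mice or cultures is not stated either, so a p-value covers only the variation among these samples, and that may be technical.

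Antibodies against CD3 cluster the T cell receptor complex, and antibodies against CD28 engage the costimulatory receptor that naive T cells need for full activation. The receptor acts through calcium, calcineurin and NFAT, through Ras and ERK to AP-1, and through protein kinase C to NF-kappa-B. The cells leave quiescence, transcribe immediate early genes, secrete cytokines that act back on them through JAK kinases and STAT factors, and enlarge under control of Myc and mTORC1 before they divide.

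Each level below is a normalized log2 signal, the log2 of the processed spot intensity minus the 75th percentile of that array, so that 0 is the level of a probe brighter than 75% of the probes. A difference is the stimulated mean minus the medium mean in log2 units, with the standard error of the limma fit, n = 2 arrays per group, and a gene was called at a Benjamini-Hochberg adjusted p below 0.05 over all 15140 genes tested. Levels are compared within a gene and not between genes. The share of probes well above background was 69.3% and 68.8% on the medium arrays and 59.3% and 58.4% on the stimulated arrays. The 8 arrays share 1 slide and 1 scan. Stimulated and medium arrays lie in different rows of that slide, so slide position and treatment cannot be told apart. In bulk RNA, fewer cells of a type and less RNA per cell cannot be told apart either.

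The labelled cell type was checked against its markers. Cd3d, Cd3e and Cd3g, which encode subunits of the receptor complex, lay between 5.36 and 6.96 on all 4 wild-type arrays. The surface marker Thy1 and the receptor-proximal kinase Lck lay between 6.77 and 7.37. Markers of other blood cells were also above background and are described further on. All 4 genes taken to mark activation rose. Il2, the growth factor of activated T cells, was at -2.57 and -2.95 in medium and 3.02 and 3.20 after stimulation, a difference of 5.87 ± 0.32 (adjusted p = 0.00061). The early surface antigen Cd69 was at 1.63 and 1.95 in medium and 4.26 and 4.21 after stimulation, a difference of 2.44 ± 0.24 (adjusted p = 0.00477). In both genes each stimulated array lay above each medium array. Il2 was also called in each fit that left out 1 wild-type array, and Cd69 in 3 of the 4.

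Stimulation raised 967 genes and lowered 586, which is 6.39% and 3.87% of the genes tested and 10.3% together. At an unadjusted p below 0.05 stood 4464 genes (29.5%). The median difference was 0.99 among the rises and -1.01 among the falls, and 482 genes rose and 299 fell at least 2-fold. The largest changes were mostly rises: 172 genes rose and 29 fell at least 4-fold, 72 rose and 1 fell at least 8-fold, and 31 rose and 0 fell at least 16-fold. These are fitted differences and include genes not well above background in 1 of the groups, for which only a smaller bound, explained below, holds. The 1 fall of at least 8-fold is Clec4a4 (bound 3.39-fold), and the rises of at least 16-fold include Gpr83 (bound 9.69-fold). The median difference over all genes tested was -0.09, and the 2 stimulated arrays lay wholly above the 2 medium arrays for 27.5% of genes and wholly below for 42% of them. These shares are the background against which the counts below are read. The counts lean on every array. Without medium replicate 1, medium replicate 2, stimulated replicate 1 or stimulated replicate 2, the calls fell to 210, 638, 200 and 231, in fits where the lone array is assumed to vary like the other groups. Of the rises 139, and of the falls 15, stayed called in all 4 of these fits. Such genes are referred to below as called in all 4 leave-one-out fits.

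**Figure D1:**
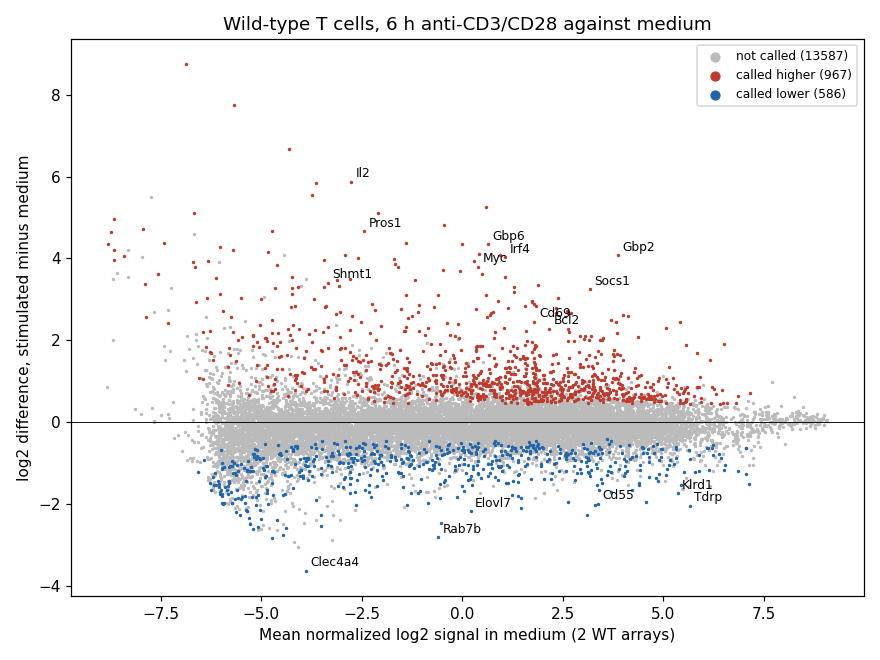
Each point is 1 of 15140 genes; the horizontal axis is the mean normalized log2 signal of the 2 wild-type medium arrays and the vertical axis the log2 difference, stimulated minus medium. The 967 genes called higher (red) reach 8.75, the value of Ccl1, while the 586 called lower (blue) end at -3.63, the value of Clec4a4. Neither gene was well above background in its dimmer group, so these values are not measured sizes.

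Among the parts of the receptor pathway itself, few transcripts were called. Of 27 genes of the T cell receptor complex and its proximal kinases and adaptors, 2 rose and 0 fell, with a median of -0.02. These were Lcp2, the adaptor SLP-76, at 0.87, and Ptprc, the phosphatase CD45, at 0.65. Of 23 genes of NFAT, calcineurin and calcium entry, 2 rose. One was Ppp3cc, a catalytic subunit of calcineurin, at 3.13 and 2.98 in medium and 5.16 and 5.15 after stimulation (difference 2.10 ± 0.20, adjusted p = 0.00439, called in all 4 leave-one-out fits). The other was Orai1, the pore of the calcium release-activated channel, at 0.89. Both counts of rises lie close to the 6.39% found over all genes.

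Of 23 genes listed as negative regulators of T cell receptor signalling, 3 rose and 1 fell (13.0% and 4.35%, against 6.39% and 3.87% of all genes). Rgs1 and Rgs2 are in this list, though they encode proteins that shorten signalling by G protein-coupled receptors. Rgs1 was at 2.74 and 2.53 in medium and 5.43 and 5.16 after stimulation and rose by 2.66 ± 0.15 (adjusted p = 0.000648), also in all 4 leave-one-out fits. Rgs2 was at 5.87 and 5.69 in medium and 4.58 and 4.53 after stimulation, so that it fell by 1.23 on the log2 scale (adjusted p = 0.0218), a call lost in all 4 of those fits. The phosphatase gene Ptpn6 (SHP-1) rose by 1.37 and the Src-like adaptor Sla by 0.87. Of 17 genes of ERK feedback, 5 rose and 0 fell: the kinase gene Map3k8 (1.90), the Ras pathway inhibitors Spry1 (1.63) and Spred1 (1.53), and the phosphatases Dusp10 (1.45) and Dusp4 (0.74).

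Transcription factors of the immediate early and activation programmes rose together. Of 33, 23 rose (69.7%) and 0 fell, with a median of 1.05. Irf4, which supports the growth and effector functions of activated T cells, was at 1.05 and 1.06 in medium and 5.13 and 5.03 after stimulation. Its difference of 4.03 ± 0.14 is 16.3-fold (adjusted p = 0.000269). Myc, which drives cell growth, was at 0.24 and 0.54 in medium and 4.17 and 4.18 after stimulation, a difference of 3.79 ± 0.26 (adjusted p = 0.0014). For both factors the gap between the groups was many times the gap within a group. The zinc finger factor Egr1 was at 1.47 and 1.09 in medium and 4.42 and 4.48 after stimulation, a difference of 3.17 ± 0.23. Egr4 was not well above background on either medium array and at -2.98 and -2.74 after stimulation, which is at least 12.1-fold higher. Such a bound divides the mean of the bright group by a floor. On each array of the dim group the floor is the dimmest signal that clears background or the probe's value, whichever is larger. A gene with such a bound passed the background filter only through arrays outside its dim group. Its calls, also those in leave-one-out fits, rest partly on values below background and add no support to the bound. Egr2 (2.69), Egr3 (1.52), the orphan nuclear receptor Nr4a1 (2.59) and Irf8 (2.70) also rose. The AP-1 members differed among themselves: Fosl1 rose by 2.38, Fos by 1.42 and Jun by 1.42, while Junb stood at 0.54 (adjusted p = 0.201) and Fosl2 at 0.13 (adjusted p = 0.719). Leaving out medium replicate 1, medium replicate 2, stimulated replicate 1 or stimulated replicate 2 left 7, 11, 7 and 8 of the 23 rises, and Irf4, Egr4, Myc and Egr1 were among the 7 called in all 4.

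NF-kappa-B is held in the cytoplasm by inhibitors, several of which are its own targets. Of 23 subunits, inhibitors and adaptors, 8 rose and 1 fell, with a median of 0.52. Nfkbid, a nuclear member of the inhibitor family, was at 3.80 and 3.88 in medium and 5.97 and 6.08 after stimulation and rose by 2.18 ± 0.20 (adjusted p = 0.00383). Its relative Nfkbiz rose by 1.34 ± 0.12 (adjusted p = 0.00295), and both were called in all 4 leave-one-out fits. The subunit genes Nfkb1 and Nfkb2 rose by 1.19 and 0.74, and the adaptor Traf4 by 0.81. Tnip1, which binds the ubiquitin-editing enzyme A20, fell by 0.78 on the log2 scale. Of 31 lineage transcription factors, 4 rose and 1 fell. Tbx21, which directs Th1 cells, rose by 1.89 ± 0.23, its relative Eomes by 1.78 ± 0.14, and Foxp3, the factor of regulatory T cells, by 1.31 ± 0.13. Ahr rose by 1.02, and Id3, an inhibitor of E proteins, fell by 0.96. Eomes and Foxp3 were called in all 4 leave-one-out fits.

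Of 46 T cell cytokines and chemokines tested, 26 rose and 0 fell. Among 33 cytokine receptor genes 7 rose and 1 fell. Il2ra, the high-affinity chain of the interleukin-2 receptor, was at 2.15 and 1.59 in medium and 5.19 and 5.27 after stimulation, a difference of 3.36 ± 0.24 (adjusted p = 0.00168). Il4ra rose by 2.83 ± 0.21, the interleukin-12 receptor chains Il12rb2 and Il12rb1 by 1.60 and 1.01, and Il15ra by 0.82. Il6ra fell by 1.18 on the log2 scale (adjusted p = 0.0433), and the interleukin-7 receptor Il7r, at 6.35 and 6.11 in medium and 4.91 and 5.15 after stimulation, did not pass (-1.20 ± 0.34, adjusted p = 0.0813).

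Of 26 JAK-STAT genes 12 rose and 0 fell, with a median of 0.51, and the largest rises were those of its inhibitors. Socs1, which blocks JAK kinases, was at 3.18 and 3.16 in medium and 6.44 and 6.39 after stimulation, 9.49-fold higher (difference 3.25 ± 0.18, adjusted p = 0.000657). Cish, induced through STAT5, was at 2.36 and 2.40 in medium and 5.41 and 5.41 after stimulation (difference 3.03 ± 0.17, adjusted p = 0.000742). In both genes the 2 arrays of a group almost coincided. Socs2 rose by 1.72, Socs3 by 1.66 and the kinase Pim2 by 1.85. Among the STAT factors, Stat2 (1.53), Stat5a (1.02) and Stat3 (0.69) rose, and Stat4 (0.30, adjusted p = 0.219), Stat5b (-0.12, adjusted p = 0.721) and Stat6 (-0.05, adjusted p = 0.83) did not pass. Among the 12 rises of the list, 5 were called in all 4 leave-one-out fits (Socs1, Cish, Pim2 and Socs2 among them). Of 18 genes that control the decay of cytokine mRNAs, 3 rose and 1 fell: N4bp1 (1.18), Zfp36 (0.88) and Zc3h12d (0.62) rose, and Zfp36l2, which binds AU-rich elements, fell by 1.20 on the log2 scale.

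The interferon-inducible GTPases were the list with the highest median of the 40 lists drawn below, 2.50, and all 17 tested rose, against 6.39% of all genes. These guanylate-binding proteins and immunity-related GTPases act on the vacuoles of intracellular pathogens and are classical targets of interferon gamma. Gbp2 was at 3.55 and 4.17 in medium and 7.91 and 7.97 after stimulation, 16.9-fold higher (difference 4.08 ± 0.22, adjusted p = 0.00061). Gbp5 was at 0.33 and 0.24 in medium and 4.11 and 4.33 after stimulation (difference 3.93 ± 0.16) and Iigp1 at 1.31 and 1.25 in medium and 4.58 and 4.58 after stimulation (difference 3.30 ± 0.11). Each stimulated array lay above each medium array for every one of the 3. Gbp6 rose by 4.34 ± 0.22 and Gbp7 by 2.95 ± 0.11, and the smallest rise was that of Gvin1 (1.51 ± 0.12). Of the 17, 16 were called in all 4 leave-one-out fits. Tgtp1 with Tgtp2, and Gbp6 with Gbp10, are near-identical copies that a probe may not tell apart, so their values are uncertain as values of single genes.

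The RefSeq promoter table (build GRCm38.p6; 250 bases before to 50 after each transcription start, first listed promoter of a gene) held 12095 of the 15140 genes tested and 10 of these 17 GTPases. The stretches printed here are those of GTPases with large rises, since their promoters share a motif. They are 60 bases each, all before the start and written 5′ to 3′ along the gene, and the capitals mark matches to GAAANNGAAA, the core of the interferon-stimulated response element, on either strand.
Gbp2 promoter, chr3:142620579-142620638, plus strand: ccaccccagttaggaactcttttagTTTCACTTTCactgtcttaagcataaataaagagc
Gbp5 promoter, chr3:142496744-142496803, plus strand: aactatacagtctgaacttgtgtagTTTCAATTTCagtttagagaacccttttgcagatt
Gbp7 promoter, chr3:142530258-142530317, plus strand: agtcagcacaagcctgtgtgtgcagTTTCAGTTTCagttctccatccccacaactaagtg
Igtp promoter, chr11:58199496-58199555, plus strand: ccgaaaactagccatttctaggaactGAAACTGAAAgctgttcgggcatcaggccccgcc
Irgm1 promoter, chr11:48871421-48871480, minus strand: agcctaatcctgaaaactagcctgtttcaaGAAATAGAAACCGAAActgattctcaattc
Tgtp1 promoter, chr11:48992289-48992348, minus strand: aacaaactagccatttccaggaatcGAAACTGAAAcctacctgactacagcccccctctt

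A match to that core was found in all 10 GTPase promoters, in 3.16% of the promoters of all genes tested and in 3.49% of all 27025 promoters of the table. It stood in 8.28% of the promoters of genes that rose, in 16.2% of those that rose at least 4-fold and in 2.71% of those of genes that fell. Promoters of copies such as Tgtp1 and Tgtp2 are not independent of each other. A match is a match of letters and not evidence of binding. The gamma-activated site TTCNNNGAA was found in 6 of the 10 GTPase promoters and in 7.34% of those of all genes tested, and it overlapped the response element core in 12 of the 382 tested genes that hold the core.

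Antiviral genes that answer to type I interferon rose less evenly. Of 36 tested, 29 rose and 0 fell, with a median of 1.65. Oas2, a sensor of double-stranded RNA, was at -0.20 and -0.77 in medium and 3.35 and 3.13 after stimulation (difference 3.72 ± 0.29, adjusted p = 0.00202). The cap-binding protein gene Ifit1 was at -0.31 and -0.47 in medium and 2.01 and 2.04 after stimulation (difference 2.41 ± 0.24, adjusted p = 0.00499). The ubiquitin-like modifier gene Isg15 was at 2.72 and 2.52 in medium and 4.88 and 4.89 after stimulation (difference 2.27 ± 0.42, adjusted p = 0.0284). The standard error of Isg15 was wide because its Lsp1-/- arrays, which enter the fit, differed more, and it was called in 0 leave-one-out fits. Oasl2 rose by 3.68, the nucleic acid sensor Zbp1 by 2.93, Rtp4 by 2.68, Ifi44 by 2.69 and the interferon-regulatory factor Irf7 by 1.92. Not every member moved: Ifit2, which lies in the same family as Ifit1 and Ifit3, was at 1.11 and 1.15 in medium and 1.28 and 1.30 after stimulation (difference 0.16 ± 0.14, adjusted p = 0.488), and Rsad2 (viperin) stood at 1.08 ± 0.63 (adjusted p = 0.303). Without medium replicate 1, medium replicate 2, stimulated replicate 1 or stimulated replicate 2, 14, 17, 15 and 15 of the rises were called.

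Of 27 antiviral genes with a promoter in the table, 13 (48.1%) held a match to the same core. Those of Ifit1, Ifit3 and Isg15 are printed for comparison with the GTPases, with the matches in capitals. In Isg15 3 matches run into each other, and in Ifit1 both of its matches fall inside the stretch. Ifit3 holds 2 matches, starting at -156 and -122, and only the first lies wholly inside its stretch and is marked.
Ifit1 promoter, chr19:34640760-34640819, plus strand: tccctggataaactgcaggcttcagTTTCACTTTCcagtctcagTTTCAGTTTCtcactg
Ifit3 promoter, chr19:34583348-34583407, plus strand: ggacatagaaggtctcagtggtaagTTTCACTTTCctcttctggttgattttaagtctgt
Isg15 promoter, chr4:156200862-156200921, minus strand: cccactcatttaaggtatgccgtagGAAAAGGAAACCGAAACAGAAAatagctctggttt

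**Figure D2:**
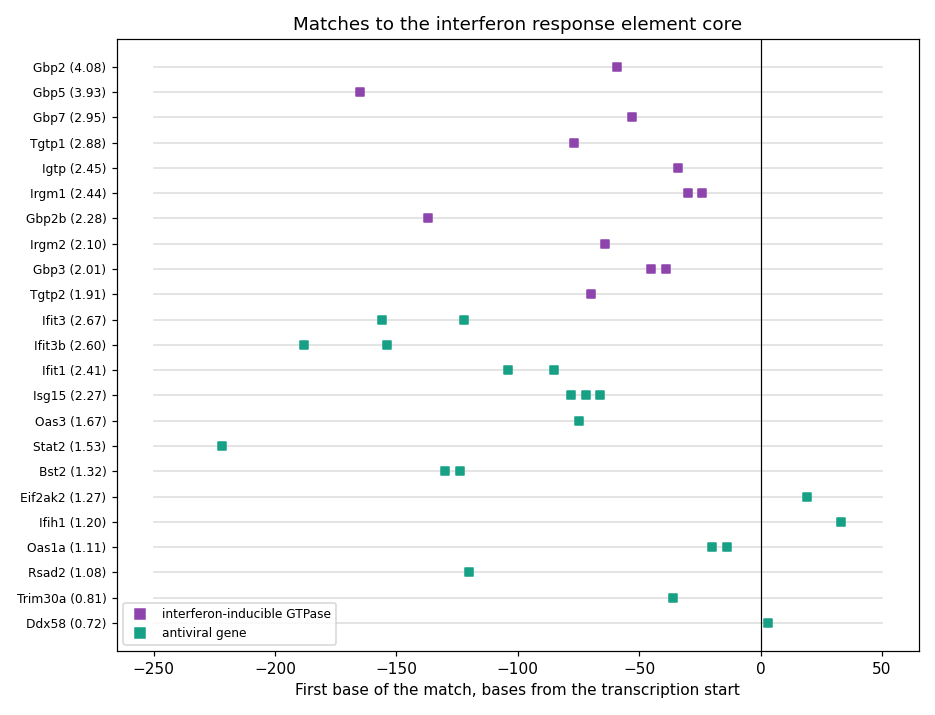
Squares mark the first base of each match to the interferon-stimulated response element core in the promoters of the 10 interferon-inducible GTPases and 13 antiviral genes that hold one, from 250 bases before to 50 after the transcription start; the log2 difference of each gene is given in brackets. Most matches lie before the start, and 3 antiviral genes (Eif2ak2, Ifih1 and Ddx58) have theirs after it.

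Genes that prepare peptides for MHC class I rose by small amounts. Of 20, 11 rose and 0 fell, with a median of 0.64. They included the trimming peptidase Erap1 (1.16), the class I transactivator Nlrc5 (1.13), the immunoproteasome subunits Psmb9 (1.05), Psmb10 (0.80) and Psmb8 (0.75), the transporter subunits Tap1 (0.99) and Tap2 (0.60), and tapasin, Tapbp (0.99). The heavy chains H2-K1 (0.18, adjusted p = 0.346) and H2-D1 (0.17, adjusted p = 0.403) and the light chain B2m (0.39, adjusted p = 0.0714) did not pass. Of the 11, 0 were called in all 4 leave-one-out fits: 1, 7, 0 and 0 were called without medium replicate 1, medium replicate 2, stimulated replicate 1 or stimulated replicate 2. Of 12 class II genes 2 rose, both subunits of the peptide-loading protein H2-DM. H2-DMa was at 1.64 and 1.81 in medium and 4.72 and 4.64 after stimulation (difference 2.96 ± 0.12, adjusted p = 0.000292) and was called in all 4 of those fits, while the class II chains H2-Aa (0.21, adjusted p = 0.591) and H2-Ab1 (0.48, adjusted p = 0.251) did not pass.

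Surface molecules that raise or restrain T cell responses mostly rose. Of 32 costimulatory and coinhibitory genes 17 rose and 1 fell, with a median of 0.78. Tnfsf14 (LIGHT), a ligand of the tumour necrosis factor family, was at -0.67 and -0.56 in medium and 2.51 and 2.49 after stimulation (difference 3.11 ± 0.23, adjusted p = 0.00168). Cd274, which encodes the inhibitory ligand PD-L1, was at 1.79 and 1.78 in medium and 4.87 and 4.46 after stimulation (difference 2.88 ± 0.15, adjusted p = 0.00061). These 2 genes were the members of the list called in all 4 leave-one-out fits. The second PD-1 ligand, Pdcd1lg2, rose by 1.65, Tnfrsf4 (OX40) by 1.36, Icos by 0.93 and Lag3 by 0.81. The receptor gene Pdcd1 (PD-1) itself stood at -0.49 (adjusted p = 0.233) and Ctla4 at 0.41 (adjusted p = 0.0841). Vsir (VISTA), which restrains resting T cells, fell by 0.77 on the log2 scale (adjusted p = 0.0497).

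Outside the cytokines, the 20 largest rises among genes above background on all 4 arrays ran from 3.50 to 5.12. Besides GTPases, antiviral genes, Irf4, Myc and the stress sensor Gadd45g, they held genes with no place in these lists. Serpina3f, an inhibitor of serine proteases from a cluster of close copies, was at -2.35 and -1.82 in medium and 3.08 and 2.99 after stimulation (difference 5.12 ± 0.54, adjusted p = 0.00596). Pros1 encodes protein S, an anticoagulant and a ligand of the TAM receptor kinases. It was at -2.50 and -2.37 in medium and 2.32 and 2.13 after stimulation, 25.3-fold higher (difference 4.66 ± 0.16, adjusted p = 0.000269). Mfsd2a, a carrier of lysophospholipids, was at -2.47 and -2.72 in medium and 1.41 and 1.43 after stimulation (difference 4.02 ± 0.30). Lad1 rose by 4.08 ± 0.23, the carbonic anhydrase gene Car12 by 3.97 ± 0.21, the magnesium channel Trpm6 by 3.50 ± 0.13 and the ubiquitin-like modifier Ubd by 4.66 ± 0.64. Tnnt2, known as the troponin T of heart muscle, was at -4.45 and -4.79 in medium and -0.71 and -0.85 after stimulation (difference 3.84 ± 0.19, adjusted p = 0.000519). Pros1, Mfsd2a, Lad1, Car12, Trpm6 and Tnnt2 were called in all 4 leave-one-out fits, Serpina3f in 3 and Ubd in 0.

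**Figure D3:**
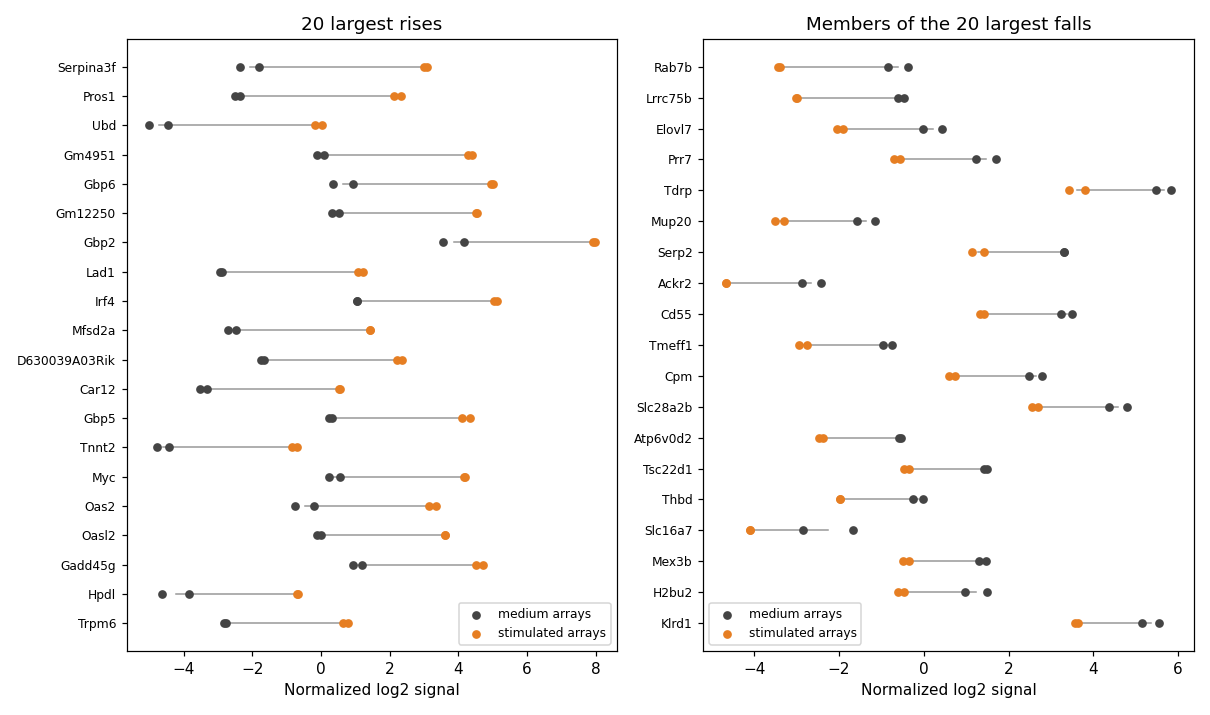
Normalized log2 signal on each of the 4 arrays for the 20 largest rises (left) and members of the 20 largest falls (right, 1 of them not drawn) among called genes above background on all 4 arrays and outside the cytokine list; black points are medium arrays and orange points stimulated arrays, and a line joins the group means. In every row the groups are apart, and the falls (from -2.82 to -1.74) span less than the rises.

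A further 19 genes rose on a probe that was not well above background on either medium array. For 18 of them no other probe cleared background in medium either, so that only a bound can be given. They passed the filter only through other arrays, so their calls add no support to these bounds. The G protein-coupled receptor Gpr83 was at least 9.69-fold higher and Ptgs2, the inducible cyclooxygenase, at least 4.34-fold. Gpr83 was called in 2 leave-one-out fits and Ptgs2 in 0. The potassium channel Kcna10 was at -5.10 and -2.79 after stimulation, a bound of at least 5.82-fold that leans on replicate 2. Its difference was 2.47 without stimulated replicate 2 and 4.79 without stimulated replicate 1, and it was called in 2 leave-one-out fits and lost under normexp background correction. The 1 other gene is Idi2, of isoprenoid synthesis, whose probes disagree. Its difference was 3.90 on the brightest probe but 0.63 (adjusted p = 0.147) on the probe that was well above background on all 4 arrays, so no fold is given.

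Of the factors that assemble ribosomes in the nucleolus, 34 of 40 rose (85%) and 0 fell, at a median of 1.06. Bysl, needed for the small subunit, was at 1.42 and 1.81 in medium and 3.57 and 3.61 after stimulation (difference 1.98 ± 0.21, adjusted p = 0.00607). Nolc1, a chaperone of nucleolar ribonucleoproteins, was at 2.88 and 2.94 in medium and 4.61 and 4.64 after stimulation (difference 1.72 ± 0.17, adjusted p = 0.00439). The methyltransferase gene Nop2 was at 3.61 and 3.65 in medium and 4.92 and 4.94 after stimulation (difference 1.30 ± 0.17, adjusted p = 0.0119). In all 3 the stimulated arrays lay above the medium arrays by more than 1 log2 unit. Rrp1b (1.75), Grwd1 (1.74), Mrto4 (1.58), Gnl3 (1.57), Dkc1 (1.44), fibrillarin, Fbl (0.86), and nucleolin, Ncl (0.63), rose too, whereas nucleophosmin, Npm1, was at 7.54 and 7.26 in medium and 7.41 and 7.54 after stimulation (difference 0.07 ± 0.15, adjusted p = 0.792). These rises are mostly about 2-fold and depended on having both arrays of a group. Without medium replicate 1, medium replicate 2, stimulated replicate 1 or stimulated replicate 2, 1, 13, 2 and 3 of the 40 were called, although the median of the list stayed between 1.02 and 1.12 in all fits.

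The palindrome CACGTG, the E-box bound by Myc with Max among others, was found in 10 of the 35 nucleolar promoters in the table (28.6%), against 9.34% for all genes tested, 12.2% for genes that rose and 6.55% for genes that fell. The core of the interferon response element was found in 0 of the 35. An E-box is printed in capitals for Nop2 and for Nme1, a nucleoside diphosphate kinase named below. Some E-boxes overlap another motif searched: of the 1130 tested genes with an E-box, 9.47% had one that overlapped TGACG, the core of the cyclic AMP response element, and 0.973% one that overlapped the AP-1 site TGANTCA.
Nop2 promoter, chr6:125131798-125131857, plus strand: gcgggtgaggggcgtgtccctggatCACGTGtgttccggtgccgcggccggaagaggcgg
Nme1 promoter, chr11:93968273-93968332, minus strand: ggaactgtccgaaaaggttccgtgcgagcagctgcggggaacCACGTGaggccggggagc

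Altogether 9 motifs were searched on both strands. TGACG was found in 54.3% of nucleolar promoters and 28.8% of those of all genes tested, and the Ets site CCGGAAG in 31.4% and 15.6%. The AP-1 site was found in 13.2% of promoters of genes that rose at least 4-fold, against 5.59%, and the Egr site GCGNGGGCG in 2.94% against 9.28%. A stringent form of the NF-kappa-B site was found in 4 of 38 cytokine promoters and 0.422% of those of all genes tested. CCAAT was found in 37.4% of promoters of genes that rose and 38.6% of all.

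Other parts of the machinery that makes proteins rose in smaller numbers. Of 29 genes of RNA polymerases I and III 6 rose and 0 fell, led by Polr1b, the second largest subunit of polymerase I, at 0.21 and 0.49 in medium and 2.19 and 2.17 after stimulation (difference 1.83 ± 0.17, adjusted p = 0.00398). Of 43 translation initiation factors 6 rose and 0 fell, with Eif2b3 (1.12, the largest) and the cap-binding protein Eif4e (0.73) among them. Of 40 genes of nuclear transport and splicing 11 rose and 0 fell, including Srsf2 (1.28), the importins Ipo4 (1.27) and Ipo5 (1.05) and Ranbp1 (0.97). Chaperones rose in 13 of 33 cases and fell in 0, among them the mitochondrial Hspd1 (1.07) and Hspa9 (1.05) and the chaperonin subunits Cct6a (1.02) and Cct3 (0.99). Polr1b was called in all 4 leave-one-out fits, and 0 of the initiation factors, transport factors and chaperones were.

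The enzymes that load transfer RNAs with amino acids rose in 9 of 23 cases and fell in 0, with a median of 0.53. Wars, the tryptophan enzyme and itself a known interferon target, was at 4.38 and 4.37 in medium and 6.43 and 6.46 after stimulation (difference 2.07 ± 0.12, adjusted p = 0.000762) and was the member of the list called in all 4 leave-one-out fits. Eef1e1 (1.32), Rars (1.12) and Iars (0.86) were further members that rose. Amino acid transporters moved both ways, with 5 of 22 higher and 1 lower. Slc7a5, the large neutral amino acid carrier, rose by 1.31 ± 0.26 (adjusted p = 0.0316), the arginine carrier Slc7a1 by 1.11 and the glutamine carrier Slc1a5 by 0.69, and Slc43a2 fell by 1.38 on the log2 scale. Of these 6 calls, 0 were kept in any of the 4 leave-one-out fits.

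Part of the enzymes of one-carbon metabolism and nucleotide synthesis rose. Of 22 genes of serine synthesis and folate one-carbon metabolism 7 rose and 0 fell. Shmt1, the cytosolic serine hydroxymethyltransferase, was at -3.36 and -3.31 in medium and 0.05 and 0.09 after stimulation, 10.6-fold higher (difference 3.41 ± 0.24, adjusted p = 0.00161). Its mitochondrial counterpart Shmt2 rose by 1.21 ± 0.18, Mthfd1 by 1.58 ± 0.19 and Mthfd2 by 1.29 ± 0.15. Of 27 genes of purine and pyrimidine synthesis 11 rose and 0 fell, including the CTP synthase Ctps (1.53), Nme1 (1.33), Prps1, which makes the common precursor phosphoribosyl pyrophosphate (1.26), and Gart. Shmt1 and Prps1 were called in all 4 leave-one-out fits. Among 12 polyamine genes 2 rose. Srm, spermidine synthase, was at 1.15 and 1.12 in medium and 3.96 and 3.88 after stimulation (difference 2.78 ± 0.20, adjusted p = 0.00168, called in all 4 of those fits), and Eif5a, whose protein carries the spermidine-derived hypusine, rose by 1.62 ± 0.24. Odc1, ornithine decarboxylase, was at 5.98 and 5.75 in medium and 5.55 and 5.61 after stimulation (difference -0.29 ± 0.15, adjusted p = 0.25).

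Glycolysis held calls in both directions. Of 32 genes of glycolysis and the pentose phosphate pathway 4 rose and 3 fell (12.5% and 9.38%, against 6.39% and 3.87% of all genes). The difference was above 0 for 24 of the 32, with a median of 0.27. Hexokinase Hk2 was at -1.97 and -2.06 in medium and 0.30 and 0.38 after stimulation, a difference of 2.35 ± 0.55 that passed narrowly (adjusted p = 0.0494), with a standard error widened by the Lsp1-/- arrays that enter the fit. Eno1 rose by 1.09 and the phosphofructokinases Pfkp and Pfkm by 0.84 and 0.68. The glucose transporter Slc2a1 stood at 0.19 (adjusted p = 0.371) and lactate dehydrogenase Ldha at 0.51 (adjusted p = 0.0584). The glucose transporter Slc2a3, Aldoc and Pfkfb4 fell, by 0.60, 0.69 and 0.57 on the log2 scale. Of 33 genes of mitochondrial pyruvate use and the citric acid cycle 0 passed in either direction (limma), with a median of 0.07. Of 27 genes of cholesterol synthesis and uptake 4 rose and 0 fell (Cyp51 1.44, Idi1 1.42, Hsd17b7 1.13 and Acat2 0.67), with a median of 0.39. Among 11 genes of cholesterol export and sterol response 0 passed and the median was -0.30. The transferrin receptor Tfrc, which imports iron, was at -0.88 and -0.88 in medium and 1.06 and 1.04 after stimulation without passing (1.93 ± 0.50, adjusted p = 0.0651). Its wild-type arrays almost coincided within each group, and its standard error, as that of Hk2, was widened by the Lsp1-/- arrays.

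Cell cycle genes were followed in a list of G1 and a list of the later phases. Among 27 cyclins, kinases and inhibitors of G1, 3 rose and 3 fell (11.1% each way, against 6.39% and 3.87% of all genes). Ccnd2, cyclin D2, was at 2.99 and 2.87 in medium and 5.04 and 5.01 after stimulation (difference 2.10 ± 0.19, adjusted p = 0.00354), called in all 4 leave-one-out fits, and its partner kinase Cdk4 rose by 0.60. The inhibitor Cdkn1a (p21) rose by 2.05 ± 0.34 on its brightest probe, but its other probe moved in the opposite direction, so its value is uncertain. Ccng2, Cdkn2d and Cdc25b fell by 1.43, 0.84 and 1.54 on the log2 scale. Of 32 genes of S phase and mitosis 0 passed in either direction, and their median was -0.05. The proliferation marker Mki67 was at 3.29 and 3.09 in medium and 3.21 and 2.97 after stimulation (difference -0.10 ± 0.51, adjusted p = 0.916), with overlapping groups.

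Bcl2 and Bcl2l1, which protect cells from apoptosis, were among the genes of cell death control that rose. Of 25 genes of the family and of cell death 5 rose and 0 fell (20% and 0%, against 6.39% and 3.87% of all genes). Bcl2 was at 2.14 and 2.18 in medium and 4.46 and 4.41 after stimulation (difference 2.27 ± 0.19, adjusted p = 0.00238). Bcl2l1, which encodes Bcl-xL, was at 3.56 and 3.38 in medium and 5.41 and 5.55 after stimulation (difference 2.01 ± 0.20, adjusted p = 0.00469). Both antiapoptotic genes were called in all 4 leave-one-out fits. Gadd45g (3.55), Gadd45b (1.34) and Bcl2a1d (1.01) rose as well, Bcl2a1d being one of several near-identical copies. Mcl1 stood at 0.37 (adjusted p = 0.105), the death effectors Bbc3 at -0.75 (adjusted p = 0.0577) and Bcl2l11 (Bim) at 0.50 (adjusted p = 0.0645).

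Of 30 genes of naive and quiescent T cells 3 fell and 2 rose (10% and 6.67%, against 3.87% and 6.39% of all genes). Their median, -0.57, was the lowest of the 40 lists. The count of falls depended on the fit: 15 of the 30 fell when only the 4 wild-type arrays were fitted, 13 with array quality weights and 13 with the replicate number as a block. In these fits the falls over all genes also grew, from 586 to 1443, 1778 and 2016 of 15140. Tob1, which restrains proliferation, was at 1.01 and 1.14 in medium and -0.52 and -0.33 after stimulation (difference -1.50 ± 0.29, adjusted p = 0.0314). S1pr1, the receptor for leaving lymphoid organs, was at 4.76 and 5.02 in medium and 3.55 and 3.69 after stimulation (difference -1.27 ± 0.28, adjusted p = 0.0422). Dapl1 fell by 1.30 on the log2 scale. The homing receptor Ccr7 (-0.59, adjusted p = 0.101) and the quiescence factor Klf2 (-0.62, adjusted p = 0.189) did not pass. The surface antigen Ly6c1 (1.52) and Slfn1 rose. In the fits with 1 array left out, 0 of the 3 falls were called.

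Stress and turnover genes fell in small numbers. Among 22 genes of the integrated stress response 3 fell and 1 rose: the pseudokinase Trib3, at 3.57 and 3.22 in medium and 1.64 and 1.80 after stimulation (difference -1.67 ± 0.21, adjusted p = 0.00943), the kinase Eif2ak3 (PERK) and Xbp1 (-0.64) fell, and the endoplasmic reticulum chaperone Hspa5 rose by 0.84. Of 36 genes of lysosomes and autophagy 4 fell and 0 rose, namely Lgmn (-0.86), the autophagy kinase Ulk1 (-0.85), cathepsin D, Ctsd (-0.58), and Psap (-0.56). Among 32 regulators of PI3K, Akt and mTORC1, Rragd (2.19) and Inpp4b rose and Sesn1 fell by 1.17. Of 34 enzymes that modify DNA or histones 5 rose, among them Ezh2 (0.76) and Kat2a (0.81), and 2 fell, Hdac9 (-0.68) and Hdac11, the latter to a level not well above background. Among 15 clock genes Per2 (1.65) and Ciart (1.17) rose and Bhlhe41 (-0.95) fell. Of 8 GTPases of immunity-associated proteins Gimap9 rose by 0.83. Over all genes tested 6.39% rose and 3.87% fell, and of the falls named in this paragraph 0 were called in all 4 leave-one-out fits.

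The largest falls were single genes of varied function. Rab7b, a small GTPase of late endosomes, was at -0.37 and -0.84 in medium and -3.45 and -3.39 after stimulation (difference -2.82 ± 0.46, adjusted p = 0.0196). Elovl7, an elongase of long fatty acids, was at 0.43 and -0.01 in medium and -2.04 and -1.92 after stimulation (difference -2.19 ± 0.20, adjusted p = 0.00368). Ackr2, a scavenger receptor for chemokines, was at -2.42 and -2.88 in medium and -4.68 and -4.67 after stimulation (difference -2.02 ± 0.17, adjusted p = 0.00252). Elovl7 and Ackr2 were the members of the 20 largest falls called in all 4 leave-one-out fits, and Rab7b was called in 0 of them. Cd55, which shields cells from complement, was at 3.49 and 3.24 in medium and 1.31 and 1.42 after stimulation (difference -2.00 ± 0.22, adjusted p = 0.00648). Thrombomodulin, Thbd, fell by 1.85 on the log2 scale, carboxypeptidase M, Cpm, by 1.97, the RNA-binding protein gene Mex3b by 1.81 and Tsc22d1 by 1.86. Cpm and Mex3b were called in 0 leave-one-out fits, Thbd and Tsc22d1 in 1 and Cd55 in 2.

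Among the 114 falls to a level not well above background on either stimulated array, the bound was largest for Klhl14 (at least 4.31-fold lower). Next came the nucleotide receptor P2ry6 (at least 4.29-fold), the C-type lectin Clec4a4, known from dendritic cells (at least 3.39-fold), and Mycl, a paralog of Myc (at least 2.7-fold). Genes that fell to background passed the filter only through other arrays, so their calls add no support to these bounds. Of these Clec4a4 was called in 3 leave-one-out fits, Klhl14 in 1, and P2ry6 and Mycl in 0. Chosen after their values were seen, as falls called in all 4 of those fits, were also Rasgrp2 (-1.53), an exchange factor that activates Rap1, Ptgfrn (-1.56), Gpc1 (-1.39), Osgin1 (-1.29) and the Notch target Hes1, at least 1.89-fold lower.

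**Figure D4:**
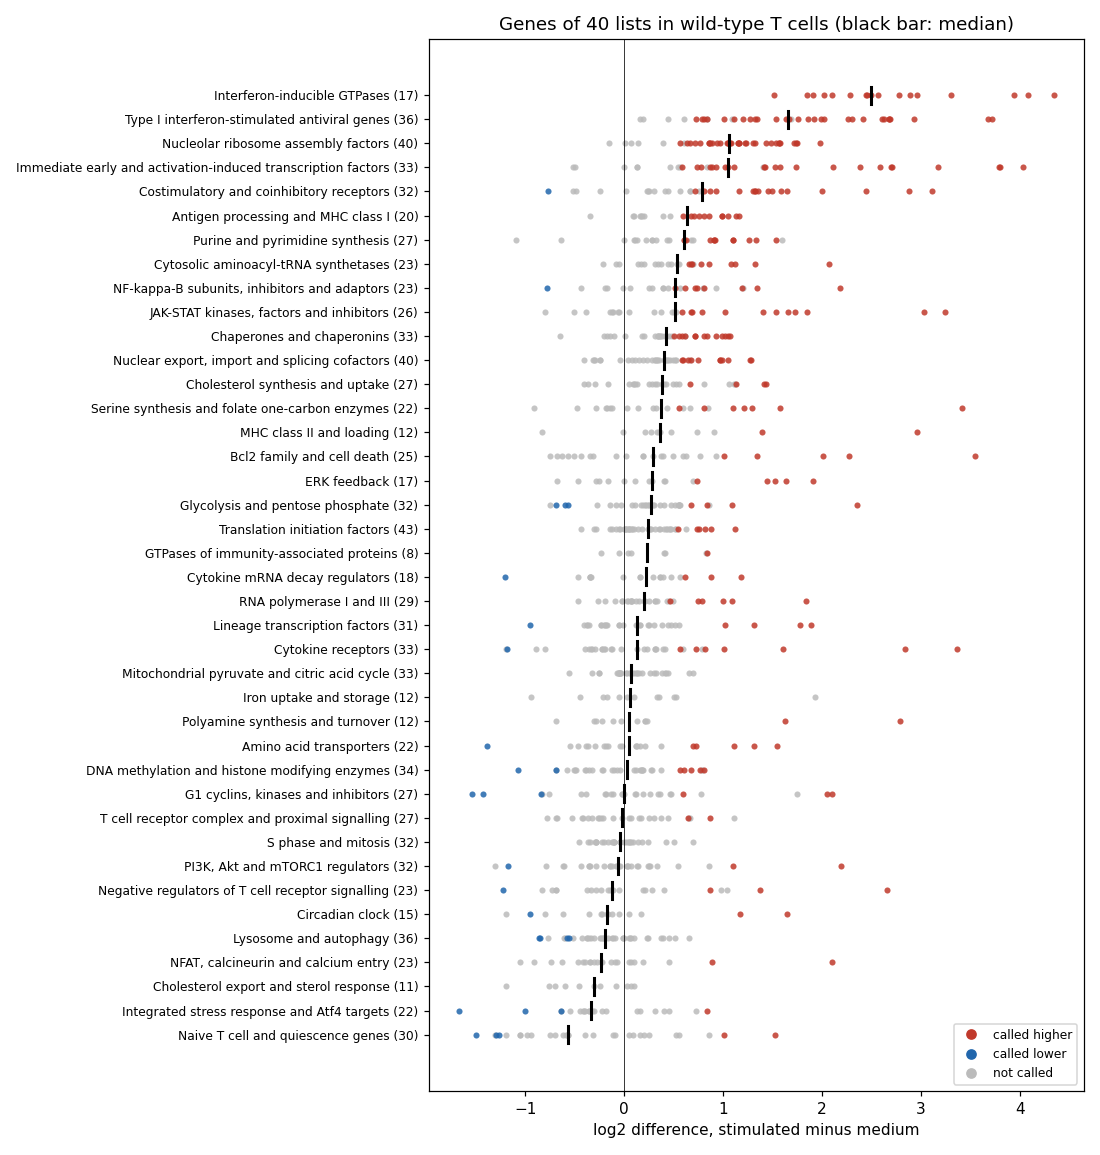
Log2 difference, stimulated minus medium, of each gene of 40 lists, ordered by the median (black bar), with the number of genes tested in brackets; red and blue points are genes called higher and lower and grey points were not called. The interferon-inducible GTPases lie highest, with all 17 called, and the genes of naive and quiescent T cells lowest, at a median of -0.57.

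Transcripts of other blood cells were present on all 4 arrays, and most of their summed levels were lower after stimulation. Summed levels are sums of linear signals in multiples of the 75th percentile of the array, so the brightest members weigh most. The median log2 level overlapped between the groups for the natural killer cell, the neutrophil, and the erythroid and platelet lists. It was 1.37 and 1.46 in medium and 1.37 and 1.35 after stimulation for natural killer cell markers. For neutrophil markers it was -0.70 and -0.86, then -0.73 and -1.36. For erythroid and platelet markers it was -1.37 and -2.01, then -1.40 and -2.12. In the B cell and monocyte lists it lay lower on both stimulated arrays, as did 42% of all genes tested. All 18 B cell markers tested were above background on each array, and their sum was 76.5 and 64.5 in medium and 57.7 and 49.9 after stimulation. Of them 1 rose (Fcer2a, 1.52) and 0 fell. All 15 natural killer cell markers were above background, with sums of 101 and 78.2 in medium and 62.9 and 56.8 after stimulation. Klrd1, which encodes CD94 and is also found on some CD8+ T cells, was at 5.55 and 5.15 in medium and 3.65 and 3.58 after stimulation (difference -1.74 ± 0.24, adjusted p = 0.0123), and Klre1 and Klrb1c fell by 0.95 and 0.83 on the log2 scale, while Gzma and Cma1 rose by 0.95 and 1.30. Neutrophil markers, of which 12 to 15 of 15 were above background, summed to 255 and 172 in medium and 147 and 144 after stimulation, with 0 of 15 called. With the replicate number as a block, 8 of the 15 neutrophil markers and 4 of the 18 B cell markers fell. In that fit 5 of the 15 natural killer cell markers, 5 of the 21 monocyte list and 1 of the 16 erythroid and platelet markers also fell. Rises there were 0, 1, 2, 1 and 1 for these lists in the same order. Falls over all genes grew in that fit from 586 to 2016 of 15140. Markers of monocytes, macrophages and dendritic cells, 19 to 21 of 21 above background, summed to 209 and 209.9 in medium and 179.9 and 181 after stimulation, and of them Clec4a4 fell. Erythroid and platelet markers, 14 to 16 of 16 above background, followed the replicate number and not the treatment: 168 and 186 on replicate 1 in medium and after stimulation, 97.8 and 94.5 on replicate 2. The part of these cells in the differences above was not tested.

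**Figure D5:**
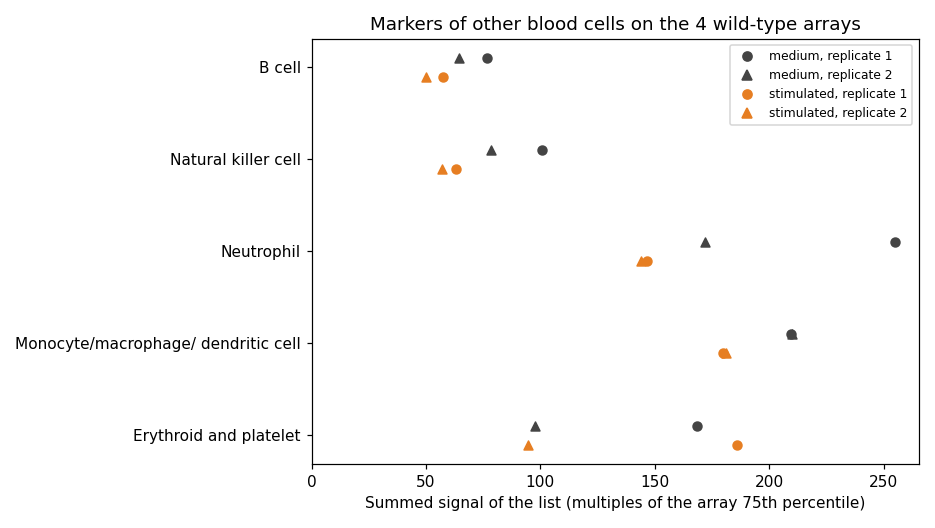
Summed linear signal of marker lists of other blood cells on each of the 4 wild-type arrays, in multiples of the array's 75th percentile; black symbols are medium arrays, orange ones stimulated arrays, circles replicate 1 and triangles replicate 2. The sums of the B cell, natural killer cell, neutrophil and monocyte lists lie lower on both stimulated arrays. The median levels of the natural killer cell, the neutrophil, and the erythroid and platelet lists, not drawn, overlap between the groups. The erythroid and platelet list parts by replicate.

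The T cells of Lsp1-/- mice, on separate arrays, gave a comparison for single genes. Their own response held 1214 calls (8.02%), of which 985 were shared in direction with the wild-type calls. That is 63.4% of the wild-type calls and 81.1% of those in Lsp1-/- cells, and 0 genes were called in opposite directions. Both responses come from the fit of all 8 arrays, with 1 estimate of the spread per gene. A gene with a small spread is favoured in both, so these shares are not those of independent tests. The sign in Lsp1-/- cells matched for 1524 of the 1553 wild-type calls. For the genes on which the account above turns, the differences in Lsp1-/- cells were 4.07 for Irf4, 3.74 for Myc, 3.54 for Gbp2, 3.05 for Socs1, 3.83 for Shmt1, 1.95 for Bysl and -1.88 for Elovl7. Tested as an interaction, the response of wild-type cells differed from that of Lsp1-/- cells for 1 gene of 15140 (0.00661%) after adjustment and for 457 at an unadjusted p below 0.05. The 1 gene is an olfactory receptor, Olfr325, which was above background on the 2 stimulated wild-type arrays alone and entered the test through them, so its call is no support for a difference between genotypes.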

How the data were processed

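The authors deposited linear spot intensities in scanner files of Agilent Feature Extraction, which the headers give as version 10.7.1.1, with the background already subtracted in the processed signal. A second, series-wide table of intensities was deposited with medians per array between 117 and 132, and served as an alternative. Its values are the median spot signals of the scanner files, with 0 differing and 0 missing. The alternative with normexp background correction starts from the same median signals. Other columns, such as the flags for control, outlier and background used as filters, are per the file headers. From these, log2 processed signal less the 75th percentile of non-control spots on its array was analysed. Outlier spots were left out, repeated spots averaged, and 37259 probes kept that cleared background on both arrays in 1 or more of the 4 groups. Probe accessions were matched to RefSeq symbols of GRCm38.p6 (26056 probes named, 29625 not named here); file headers name mm9, so no coordinates of array probes are given. The brightest probe stood for a gene.

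Tests used limma 3.58.1 under R 4.3.3 (two-sided, Benjamini-Hochberg), 1 mean per group over all 8 arrays, 4 residual and 2.11 prior degrees of freedom. The number of arrays, 2 per group, limits the precision: an exact permutation test could not go below p = 0.333. The fit was tested on simulated data in which 200 of 15140 genes were changed. It called 52%, 60%, 82% and 96% of changes of 1, 2, 3 and 4 log2 units, with 11 false calls. A gene that did not pass is therefore not shown to be unchanged. In the data a larger share of genes was called, 10.3%, and the simulated deviations were drawn independently for each array. The shares recovered may thus differ from those of the real fit. The members and the gene lists were chosen with earlier results of these data known. Genes were named as the 4 activation markers, the 20 largest rises and falls above background, the 10 largest bounded ones each way, up to 5 called members per list and direction, the brightest markers of other cells and list members that did not pass; other list members were chosen after their values were seen. Some genes of these lists are not reported here. Alternatives covered background, scaling, filter, probe choice, arrays in the fit, replicate number and array weights.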

Additional observations from a re-analysis of the deposited data

Results flagged for a closer look

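Olfr325, an olfactory receptor gene, was singled out because its response differed between genotypes in a test of that difference (limma interaction, 4.05 log2 units, adjusted p = 0.0399 over 15140 genes). Its normalized log2 signal was -8.67 and -8.97 in wild-type medium and -4.40 and -4.54 after stimulation. On the 4 Lsp1-/- arrays it lay between -8.60 and -8.09. It was well above background on the 2 stimulated wild-type arrays alone and entered the test through them. The other 6 arrays give only an upper limit to its level, so the difference has no measured size, and in wild-type cells stimulation raised it at least 4.05-fold over that limit. The call is no support for a difference between genotypes.

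Probes without a gene name here carried signal that the gene counts do not use. Fitted in the same way, 425 such probes were called higher and 478 lower in stimulated wild-type cells.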

How the results depend on the processing

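With medium replicate 1, medium replicate 2, stimulated replicate 1 or stimulated replicate 2 left out in turn, the calls ranged from 200 to 638, the rises from 165 to 420 and the falls from 30 to 218. Fewer arrays entered these fits. Fitting only the 4 wild-type arrays gave 2734 calls (1443 falls), array quality weights 3438 (1660 rises, 1778 falls) and no filter on dim probes 3000 (2322 rises, from 19752 genes). Both first alternatives use another estimate of the spread; the cause of the last rise was not tested. The replicate number as a block within genotype gave 3469 calls (1453 rises, 2016 falls). Deviations of same-numbered wild-type arrays correlated at 0.161 and of Lsp1-/- arrays at 0.736; the labels do not say that a number marks a shared animal or batch. Calls under normexp, quantile or median scaling, the stricter filter, the filter on wild-type groups, averaged probes and the deposited table lay between 1547 and 1715. No gene was called opposite to its main direction in any of these fits. The difference of Hba-a2, not called, turned to -0.001 under normexp and -0.0059 in the deposited table. It was -0.35 without medium replicate 2 and -0.44 without stimulated replicate 1, where Hbb-bt turned to -0.35 and -0.42 and Hba-a1 to -0.30 and -0.47, none of them called, and the highest values were 0.51, 0.63 and 0.59 for Hba-a2, Hbb-bt and Hba-a1 without stimulated replicate 2. Normexp was run on the median signal in place of the mean signal first planned, and this and the wild-type filter were chosen after seeing the data. Of the 586 falls, 114 ended at background, where only a bound can be given. Among all genes tested, 899 were above background on both medium arrays and neither stimulated array, and 26 the other way round. The dimmest signal that cleared background was -6.34 and -6.63 on the medium arrays and -5.66 and -5.63 on the stimulated arrays.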
